A study of Mus musculus with 18 samples.

Results

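The genes described here encode the ligands and receptors of axon guidance, measured in pancreatic islets of mice. They were chosen by gene name from the table of estimated counts, as all semaphorins, plexins, neuropilins, Slits, Robos, netrins, Dcc and Unc5 receptors, ephrins and Eph receptors, with the semaphorin Sema5a left out. Positions below are on GRCm38, from GENCODE M21. The name pattern matched 74 of 54186 gene symbols and 73 remained, of which 36 encode ligands, 34 encode receptors and 3 are antisense transcripts of the plexin gene Plxna4. Bulk RNA was sequenced from islets of 18 FVB mice aged 6 weeks, about 165 islets per mouse, with 1 library per mouse and 6 per genotype. The transgene of hIAPP mice encodes human islet amyloid polypeptide and that of rIAPP mice the rodent form, and WT mice had none. Islet amyloid polypeptide is a hormone that beta cells release with insulin, and the human form is prone to aggregate. Both transgenes were expressed in beta cells from the insulin II promoter, and the number of founder lines is not given in the sources used here.

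Guidance ligands tell a growing axon or a migrating cell where to go by attracting or repelling it through receptors on its surface. Semaphorins signal through plexins, with neuropilins as co-receptors for most secreted class 3 members. Slits signal through Robos and netrins through Dcc, neogenin and Unc5 receptors, whereas ephrins bound to one cell activate Eph receptors on its neighbour. The same systems shape blood vessels and epithelia. In mouse islets, Robo receptors are known for keeping endocrine cell types in their places, and contact between beta cells through EphA receptors and ephrin-A ligands for tuning insulin secretion.

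Libraries held 110 to 166.2 M counts, and the guidance genes together took 0.114% to 0.153% of a library. Ins2 had a median of 46556 CPM (counts scaled to the library total and its size factor) in hIAPP, 30733 in rIAPP and 55257 in WT, and the lowest of all libraries had 24991, so this defining RNA of beta cells was abundant throughout. The mouse gene Iapp had medians of 24436, 39114 and 33819 CPM in hIAPP, rIAPP and WT libraries, and as a count of the mouse sequence it does not check the hIAPP label. Libraries hIAPP 5 and hIAPP 6 stood apart from the other hIAPP libraries, with summed beta cell markers of 68720 and 84221 CPM, against 113686 to 126460 CPM in the other hIAPP libraries. They also held the most macrophage marker RNA of the hIAPP libraries (764 and 656 CPM, against 384 to 523) and the most acinar marker RNA (6951 and 12092 CPM, against 1854 to 5487).

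Levels in WT islets, given per kb of exon so that genes can be compared, were led by receptors. Plexin B2, a receptor for class 4 semaphorins, had a median of 33.9 CPM per kb (lowest 28.1, highest 35.7 of 6 WT libraries). Robo2 followed with 21.2 CPM per kb (15.9 to 29.1) and the semaphorin co-receptor Nrp1 with 13.8 (13.0 to 17.4). The ranges of Robo2 and Nrp1 overlapped, and those of Plxnb2 and Nrp1 did not. With the longest transcript as the length, Robo2 (41.9 CPM per kb) came before Plxnb2 (40.3) and Nrp1 (37.1). After them, per kb of exon, came the ephrin Efnb1 with 5.70 CPM per kb, Robo1 with 4.79, the membrane-anchored semaphorin Sema7a with 4.67, Sema4b with 4.35, the netrin receptor Unc5a with 4.31 and the ephrin Efna1 with 4.02. Ephb4, a receptor for ephrin-B2 known from veins, had 3.69 CPM per kb, the basement membrane netrin Ntn4 had 3.65 and the endothelial receptor Robo4 had 3.45. The order below the leading 3 also depended on the length used: per kb of the longest transcript it was Robo1 with 10.5, Sema4b with 6.22, Efnb1 with 6.04, Sema6d with 5.18 and Sema7a with 4.67 CPM per kb. Slit ligands were low, with 0.716 CPM per kb for Slit3, 0.303 for Slit1 and 0.133 for Slit2, and per kb of the longest transcript Slit2 (0.339) came before Slit1 (0.317). Dcc, the attractive netrin receptor of axons, had 0.0116 CPM per kb. Of the 73 genes, 68 had enough counts to be tested. Those left out were Epha6 with 17 counts over all libraries, Ntn5 with 40, Plxna4os1 with 26, and Plxna4os2 and Plxna4os3 with 0.

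**Figure D1:**
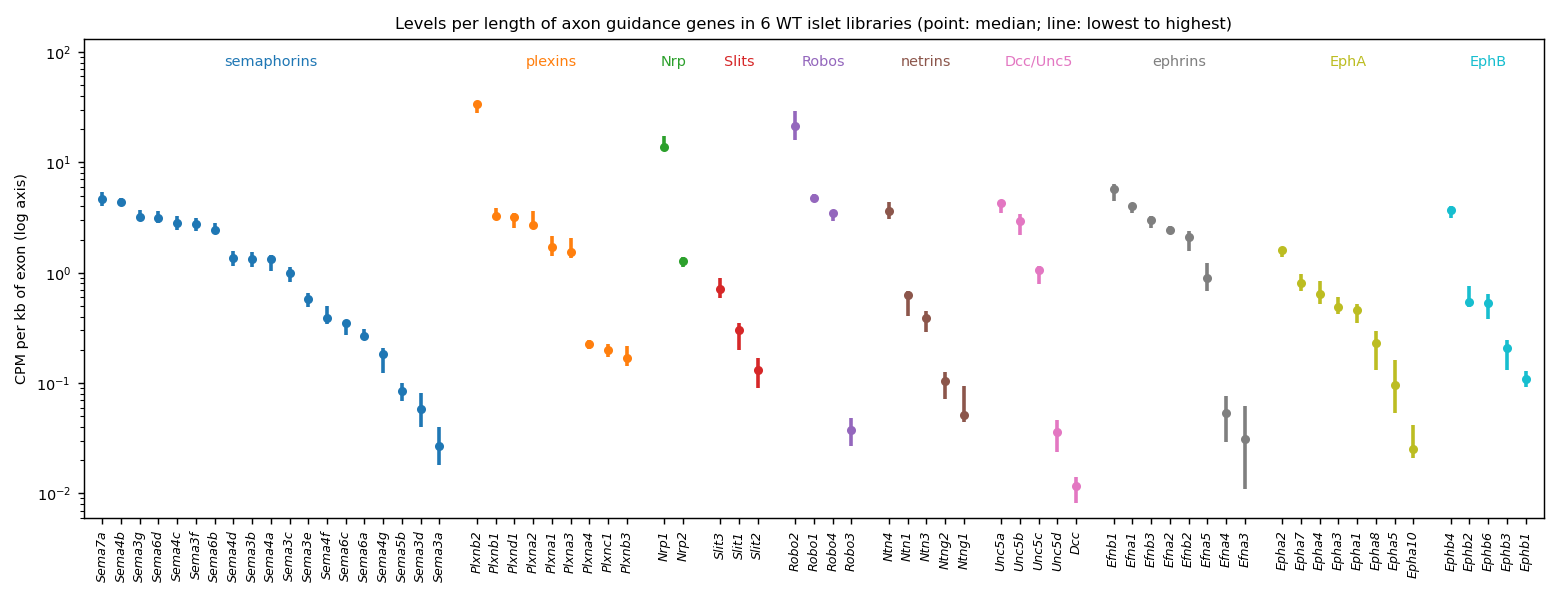
Each point is the median level of a guidance gene in 6 WT libraries, in CPM per kb of exon on a log axis, with a line between the lowest and highest library and genes grouped by family. Plxnb2 (33.9), Robo2 (21.2) and Nrp1 (13.8 CPM per kb) lie above all other members, and genes listed at 0 in a WT library are not drawn.

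In hIAPP against WT islets, 8 of the 68 tested guidance genes were higher and 6 were lower, and 54 did not pass (14 higher and 5 lower when scaled by library totals alone). Plxnc1, the receptor of Sema7a, rose most among the members. Epha3, Sema6c and Sema3b were also higher, and Slit1, Unc5c, Efnb3, Robo1 and Robo2 were lower. A gene was called at a Benjamini-Hochberg adjusted p under 0.05 from edgeR's quasi-likelihood test over 20244 genes, a rule that called 15.8% of all genes (8.31% higher, 7.53% lower), so the 20.6% of members called lay near the background. Of the 68, 2 were called with a change of at least 2-fold, against 2.85% of all genes. The hIAPP libraries lay all above the WT libraries for 4 members (3.74% of all genes) and all below for 3 (2.89%), where 6.63% of all genes did either. The median log2 fold change was -0.00 over the members and -0.01 over all genes tested.

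In rIAPP against WT islets, 25 of the 68 were higher, 8 were lower and 35 did not pass. Of the secreted class 3 semaphorins 6 of 7 were higher, and of the netrins 4 of 5, with Sema3c, Sema3e and Ntn1 among them, whereas Robo1, Robo2 and Slit1 were lower. The share of members called was 48.5%, against 26.8% of all genes (14.1% higher, 12.6% lower). Among genes with at least 1 CPM in 6 libraries, 29 of 55 members were called, against 34.4% of all 14356 such genes. Calls of at least 2-fold numbered 8 of the 68 tested members, with 6.58% of all genes reaching this. The rIAPP libraries lay all above the WT libraries for 11 members (8.13% of all genes) and all below for 4 (6.75%), with 14.9% of all genes in either state. Ligands had 18 higher and 3 lower of 35 tested (median log2 fold change 0.29). Receptors had 7 higher and 5 lower of 33 (median 0.07), and the median over all genes was -0.01. In bulk islets, fewer cells of a type and less RNA per cell cannot be told apart.

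The direct comparison of hIAPP with rIAPP islets, the 2 transgenic genotypes, called 8 members higher and 23 lower, and 37 did not pass. Lower in hIAPP islets were 5 of 7 class 3 semaphorins, 3 of 5 netrins and 4 of 8 ephrins, and Plxnc1, Robo1 and Sema6c were higher. The share called was 45.6%, against 27.6% of all genes (13.5% higher, 14.1% lower). Under the filter of at least 1 CPM in 6 libraries, 26 of 55 members were called, against 35.1% of all 14356 genes kept. Of the 68 tested members, 8 were called at 2-fold or more, against 6.32% of all genes. The hIAPP libraries lay all above the rIAPP libraries for 4 members (6.52% of all genes) and all below for 9 (6.85%), against 13.4% of all genes in either state. The median log2 fold change was -0.15 over members and -0.00 over all genes. The 3 comparisons share libraries, so their lists are not independent of each other. In all, 41 members were called in at least 1 comparison and 27 tested members in none. The share of all genes called in at least 1 comparison was not counted, so these numbers have no background beside them.

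**Figure D2:**
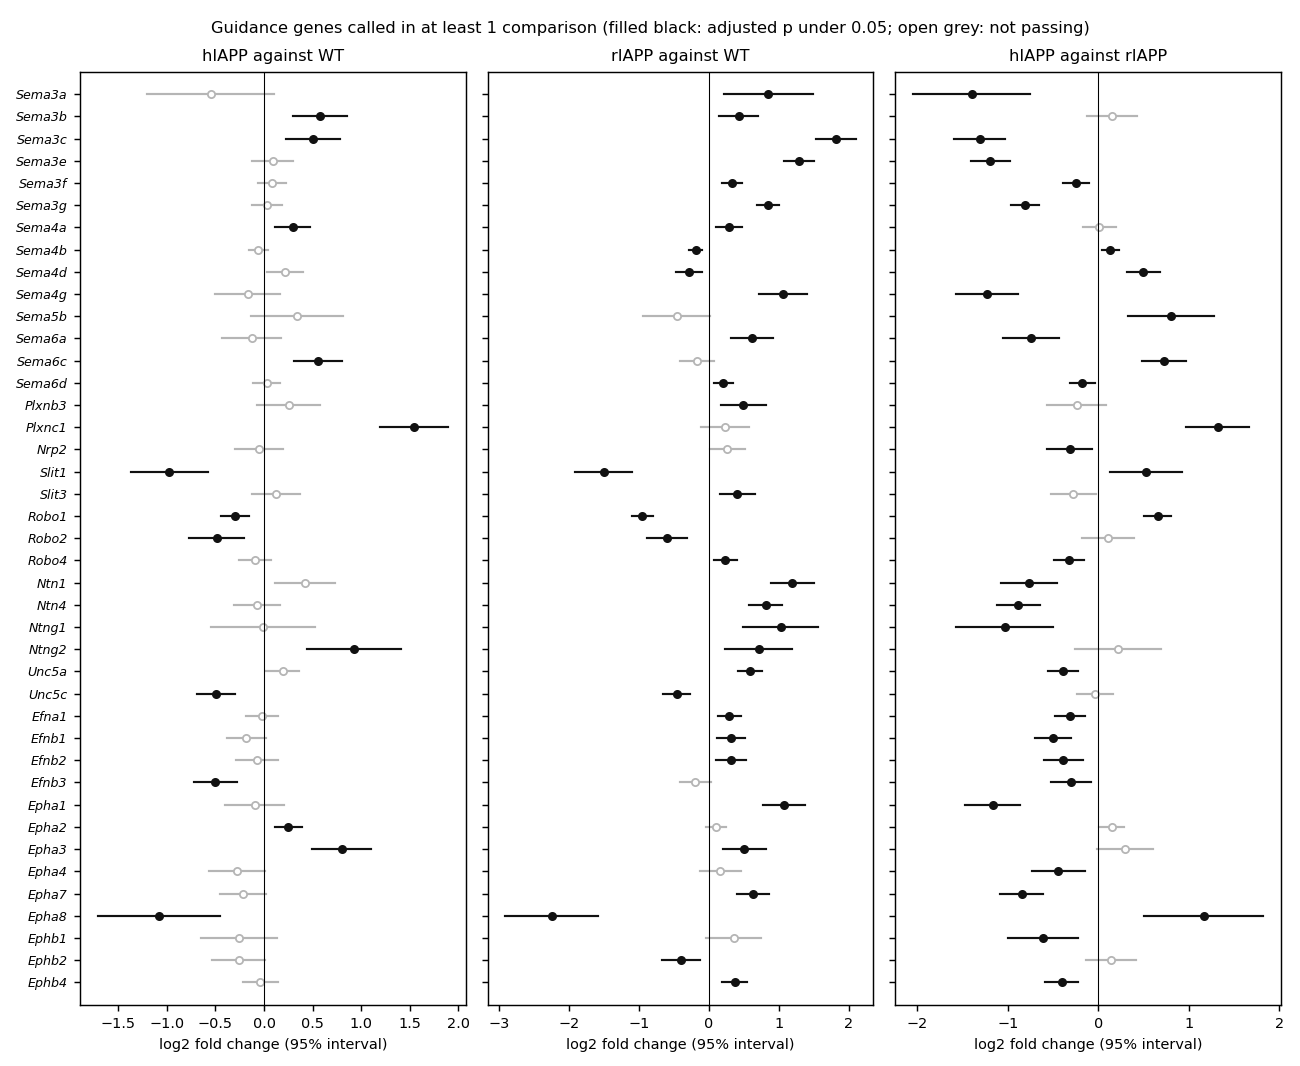
Each row is a guidance gene called in at least 1 comparison, and each panel 1 comparison, with the log2 fold change of the first genotype over the second and its 95% interval from the edgeR fit. Black filled points passed an adjusted p of 0.05. Most filled points lie right of 0 in rIAPP against WT (25 of 33) and left of 0 in hIAPP against rIAPP (23 of 31).

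RNA of other cell types differed between the genotypes. Only acinar RNA was entered in a fit, given further on, and the part of the other cell types in the guidance results was not tested. Endothelial markers summed to 631 to 723 CPM in hIAPP libraries (median 669), 889 to 994 in rIAPP (978) and 709 to 799 in WT (768). All 12 of these markers were higher in rIAPP than in WT, 4 were lower in hIAPP than in WT, and all 12 were lower in hIAPP than in rIAPP. Macrophage markers summed to a median of 500 CPM in hIAPP (384 to 764), 104 in rIAPP (98.4 to 115) and 155 in WT (145 to 168), with 11 of 13 higher in hIAPP than in WT, and 7 lower and 1 higher in rIAPP than in WT. Lymphocyte markers summed to 13.8 to 24.9 CPM in hIAPP, 4.73 to 8.13 in rIAPP and 14.9 to 19.2 in WT. Of 6 tested lymphocyte markers, 3 were higher in hIAPP than in WT, 2 were lower in rIAPP than in WT and 4 were higher in hIAPP than in rIAPP. Schwann cell markers summed to 40.8 to 59.9 CPM in hIAPP, 44.6 to 51.9 in rIAPP and 34.1 to 43.6 in WT, with 5 of 8 higher in hIAPP than in WT and 3 of 8 in rIAPP than in WT. Stellate cell and pericyte markers had medians of 1790 CPM in hIAPP, 1705 in rIAPP and 999 in WT, and acinar markers 4725, 6935 and 1359 CPM in the same order. Beta cell markers ranged from 68720 to 126460 CPM in hIAPP, 73998 to 101938 in rIAPP and 126592 to 158597 in WT. No marker of these lists was at 0 in all libraries.

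**Figure D3:**
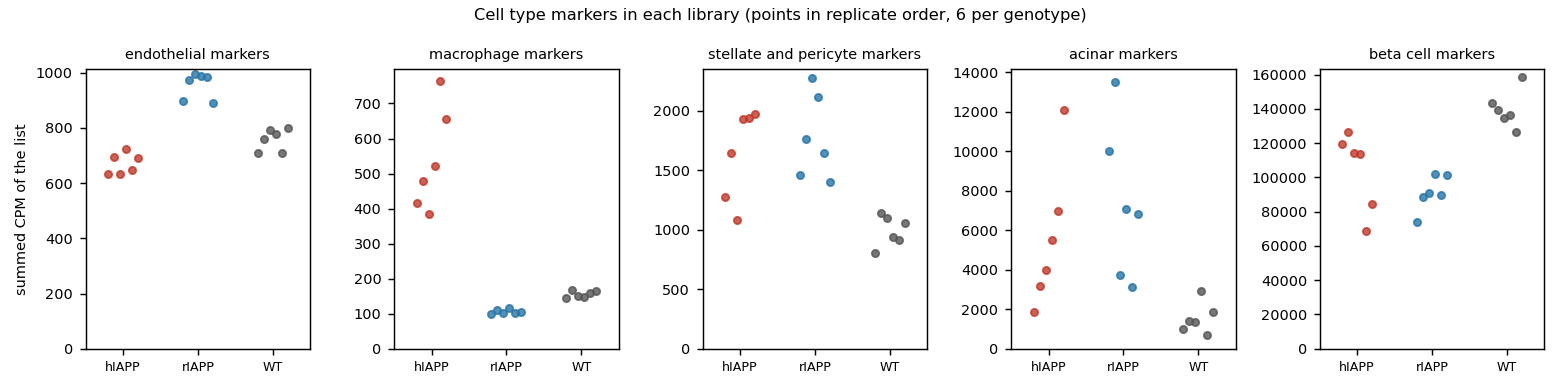
Points are single libraries, 6 per genotype, and the vertical axis is the summed CPM of a marker list. Endothelial markers are highest in rIAPP (889 to 994 CPM), macrophage markers in hIAPP (384 to 764 CPM) and beta cell markers in WT (126592 to 158597 CPM). Acinar values of hIAPP (1854 to 12092 CPM) overlap those of rIAPP, and overlap those of WT through hIAPP 1 alone.

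When a score of acinar markers was added to the fit as a covariate, the only hIAPP against WT calls left were Plxnc1 and Slit1, while 3.85% of all genes were called. Some of the 12 lost calls kept most of their fold change, as Sema6c (0.50 with the covariate, 0.56 without), Sema4a (0.30 in both) and Efnb3 (-0.45 and -0.50), and others came out smaller, as Sema3b (0.31 and 0.58) and Robo2 (-0.31 and -0.49). For rIAPP against WT, 12 of the 33 calls were left, against 10.1% of all genes, and these were Robo1, Sema3c, Sema3e, Sema3g, Ntn1, Ntn4, Slit1, Epha1, Epha7, Epha8, Sema4g and Unc5a. Of the 21 lost, Efna1 (0.30 with the covariate, 0.29 without), Efnb1 (0.45 and 0.32), Sema4a (0.30 and 0.29) and Sema4d (-0.42 and -0.28) were no smaller with it. Ephb4 (0.15 and 0.37), Sema3b (0.10 and 0.43), Ntng2 (0.23 and 0.71) and Plxnb3 (-0.01 and 0.49) were smaller. The acinar sums were 3115 to 13505 CPM in rIAPP and 720.3 to 2901 CPM in WT, with no overlap, so genotype and acinar RNA moved together in this comparison. In hIAPP only hIAPP 1 (1854 CPM) lay within the WT range, with the other hIAPP libraries at 3189 to 12092 CPM. Genotype and acinar RNA therefore largely moved together in hIAPP against WT as well. For hIAPP against rIAPP, 28 of 31 were left, against 26.7% of all genes. Without hIAPP 5 and hIAPP 6, Plxnc1, Epha3, Sema6c, Unc5c, Slit1 and Efnb3 stayed called in hIAPP against WT, Sema4f was added, and 8.13% of all genes were called.

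Class 3 semaphorins are secreted ligands that repel axons and steer endothelial cells. Of the 7 tested, 6 were higher in rIAPP than in WT islets, and the rIAPP libraries lay above every WT library for 5 of them. Sema3c (chr5:17574281-17730268), which binds neuropilins and plexin D1, had 6.28, 10.1 and 12.6 CPM (lowest, median, highest of 6) in hIAPP, 20.3, 24.2 and 29.1 in rIAPP and 5.87, 7.10 and 8.05 in WT. No rIAPP library reached down to a library of the other genotypes, and the hIAPP and WT ranges overlapped. Its mean was 3.52-fold that of WT in rIAPP islets, with 1.82 ± 0.14 (SE) for log2 fold change and 3.25e-09 for edgeR adjusted p. Sema3c was also higher in hIAPP than in WT (0.50 ± 0.13, edgeR adjusted p = 0.0139). This hIAPP call was lost with the acinar covariate and without hIAPP 5 and hIAPP 6. Sema3e (chr5:14025276-14256689), which binds plexin D1 without a neuropilin, had 4.30, 5.86 and 6.72 CPM in hIAPP, 10.8, 13.5 and 14.7 in rIAPP and 4.51, 5.32 and 6.02 in WT. It was higher in rIAPP than in WT with a log2 fold change of 1.28 ± 0.10 (edgeR adjusted p = 9.50e-09), and the hIAPP and WT ranges overlapped. Sema3g (chr14:31217860-31230352), a ligand made by endothelium, had 12.8, 15.3 and 17.7 CPM in hIAPP, 22.7, 27.4 and 28.9 in rIAPP and 13.6, 14.6 and 16.9 in WT, with a log2 fold change of 0.85 ± 0.08 for rIAPP over WT (edgeR adjusted p = 4.09e-08). Each of the 3 genes was lower in hIAPP than in rIAPP, by log2 fold changes of -1.31 ± 0.13 for Sema3c, -1.20 ± 0.10 for Sema3e and -0.81 ± 0.08 for Sema3g.

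Sema3f, which binds neuropilin 2, was higher in rIAPP than in WT by 0.33 ± 0.07 on the log2 scale. Sema3a, the neuropilin 1 ligand that collapses growth cones, averaged 0.263 CPM in hIAPP, 0.697 in rIAPP and 0.386 in WT, and was lower in hIAPP than in rIAPP (-1.40 ± 0.31). Its call in rIAPP against WT (0.85 ± 0.30, edgeR adjusted p = 0.0437) ended when hIAPP 2, WT 1, WT 2, WT 5, WT 6 or any rIAPP library but rIAPP 1 was left out, with log2 fold changes of 0.74 to 0.90. Sema3b (chr9:107597674-107609229), also secreted, had 6.63, 9.17 and 12.4 CPM in hIAPP, 7.36, 8.01 and 10.5 in rIAPP and 5.37, 6.37 and 7.35 in WT. Its log2 fold change was 0.58 ± 0.13 in hIAPP over WT (edgeR adjusted p = 0.00561) and 0.43 ± 0.13 in rIAPP over WT. The hIAPP call was lost with the acinar covariate and without hIAPP 5 and hIAPP 6, which had 12.4 and 11.3 CPM. The rIAPP call was lost with the acinar covariate and without rIAPP 4 (0.35) or WT 1 (0.38). Sema3d did not pass in any comparison and averaged 0.725, 0.592 and 0.506 CPM in hIAPP, rIAPP and WT.

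Sema3d, Sema3a, Sema3e and Sema3c lie within 5.35 Mb of mouse chromosome 5 (12383385 to 17730268, GRCm38), an interval singled out after the values were seen. In rIAPP against WT, 3 of these 4 genes and 2 of the 16 other tested genes there were higher, Hgf and Cacna2d1, and none was lower, where 14.1% of all genes were higher. The median log2 fold change of rIAPP over WT was 1.07 for the 4 members and -0.42 for the 16 other genes.

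**Figure D4:**
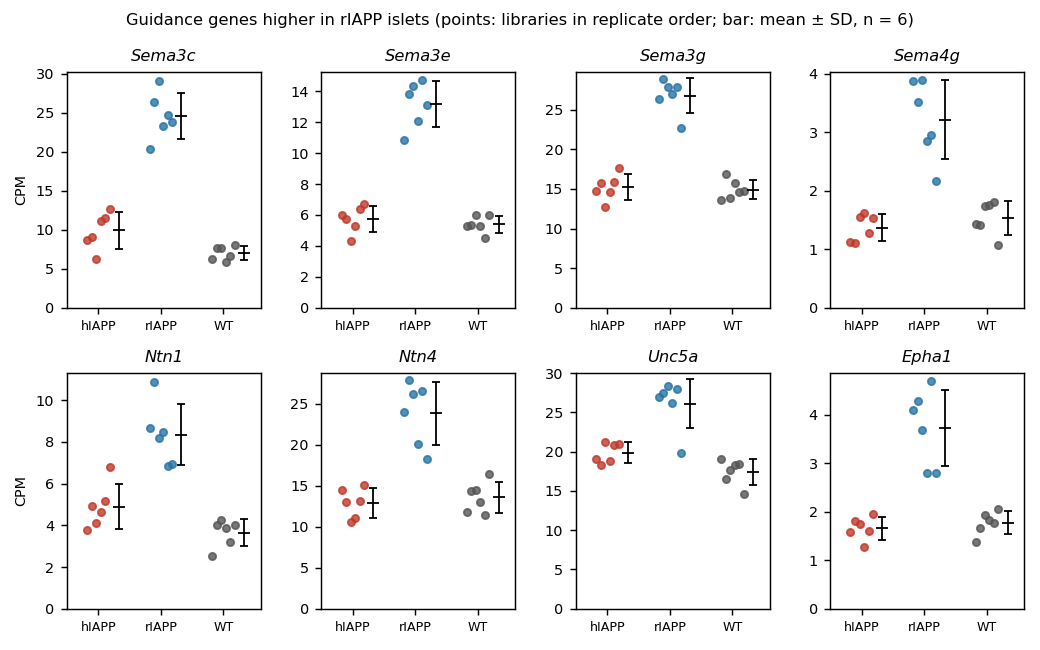
Points are CPM in single libraries, 6 per genotype, with the mean ± SD beside them, for 8 guidance genes. All rIAPP libraries of Sema3c (20.3 to 29.1 CPM) and Sema3e (10.8 to 14.7 CPM) lie above every hIAPP and WT library, and 1 rIAPP library of Unc5a lies at 19.9 CPM, near the other genotypes.

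Promoters are shown for the 4 members with the widest log2 differences among the named genes that have a promoter in the RefSeq table (GRCm38.p6), since these carry the clearest changes between genotypes. Each runs from 250 bases before to 50 after the RefSeq start, 5′ to 3′ on the gene's strand, with GC boxes (GGGCGG or its reverse complement CCGCCC) in capitals. In GENCODE M21 the genes start upstream of that for Sema3c (17574281) and Sema4g (44989101). By those starts, the window below lies wholly inside the gene for Sema3c and almost wholly for Sema4g. Sema3c is at chr5:17574566-17574865 (plus strand), Sema3e at chr5:14025026-14025325 (plus), Sema4g at chr19:44989094-44989393 (plus) and Plxnc1 at chr10:94944796-94945095 (minus).
Sema3c: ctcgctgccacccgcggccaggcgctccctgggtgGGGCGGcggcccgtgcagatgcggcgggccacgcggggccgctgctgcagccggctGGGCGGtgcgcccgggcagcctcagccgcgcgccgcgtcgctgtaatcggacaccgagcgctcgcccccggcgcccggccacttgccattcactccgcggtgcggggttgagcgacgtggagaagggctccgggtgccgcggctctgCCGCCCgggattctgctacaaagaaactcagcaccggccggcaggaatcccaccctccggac
Sema3e: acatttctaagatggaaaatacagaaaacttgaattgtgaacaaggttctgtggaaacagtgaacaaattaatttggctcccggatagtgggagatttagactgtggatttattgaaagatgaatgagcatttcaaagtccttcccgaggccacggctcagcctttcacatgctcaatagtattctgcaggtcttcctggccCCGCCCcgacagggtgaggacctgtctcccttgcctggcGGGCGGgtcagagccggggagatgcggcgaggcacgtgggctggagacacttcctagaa
Sema4g: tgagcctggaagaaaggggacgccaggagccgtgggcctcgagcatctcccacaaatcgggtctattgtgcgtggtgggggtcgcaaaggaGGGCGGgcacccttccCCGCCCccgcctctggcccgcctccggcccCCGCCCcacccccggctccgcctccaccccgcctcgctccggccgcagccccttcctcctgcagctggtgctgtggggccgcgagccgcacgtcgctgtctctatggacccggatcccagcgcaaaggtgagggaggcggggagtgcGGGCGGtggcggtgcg
Plxnc1: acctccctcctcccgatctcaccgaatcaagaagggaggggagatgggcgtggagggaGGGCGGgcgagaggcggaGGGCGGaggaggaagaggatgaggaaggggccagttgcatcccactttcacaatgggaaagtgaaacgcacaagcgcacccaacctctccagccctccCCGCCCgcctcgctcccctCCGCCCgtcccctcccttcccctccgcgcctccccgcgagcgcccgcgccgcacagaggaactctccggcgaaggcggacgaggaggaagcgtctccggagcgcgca
Sema3c holds 3 GC boxes, Sema3e 2, Sema4g 4 and Plxnc1 4, and Sema3e is the least GC-rich of the set at 50.7%, against 75.7% for Sema3c. A GC box was in 53 of 76 promoters of the members (69.7%), against 35.7% of 32851 promoters of the same length, while the median GC content was 64.0% and 52.7%. A TATA box (TATAAA, either strand) was in 2 of the 76, those of Efnb2 and Slit2, against 13.6% of all promoters. The cAMP response element (TGACGTCA) was in the promoter of Epha2 alone, against 1.79% of all promoters. The amino acid response element (TGATGCAAT) and the sterol response element (TCACNCCAC) were in none of the members' promoters on either strand, against 0.192% and 1.24% of all promoters. These are letter matches in a window and not binding sites.

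Class 4 to 7 semaphorins are bound to membranes. Sema4g (chr19:44989101-45003397) had 1.11, 1.41 and 1.62 CPM in hIAPP, 2.17, 3.24 and 3.89 in rIAPP and 1.07, 1.59 and 1.81 in WT, and rIAPP lay above all other libraries. Its log2 fold change was 1.06 ± 0.16 for rIAPP over WT (edgeR adjusted p = 4.12e-05) and -1.23 ± 0.16 for hIAPP over rIAPP. Sema6c (chr3:95160457-95174024) had 2.62, 2.88 and 3.30 CPM in hIAPP, 1.22, 1.82 and 2.09 in rIAPP and 1.63, 2.07 and 2.13 in WT. All hIAPP libraries were above all others, and it was higher in hIAPP than in WT (0.56 ± 0.12, edgeR adjusted p = 0.00325) and than in rIAPP (0.72 ± 0.12). Sema4d, the plexin B1 ligand known from lymphocytes, averaged 12.3 CPM in hIAPP, 8.68 in rIAPP and 10.5 in WT, higher in hIAPP than in rIAPP by 0.50 ± 0.09. In the same comparison, 4 of the 6 tested lymphocyte markers were higher, and of 13 macrophage markers 11 were higher and 1 lower. Within hIAPP, libraries 1 and 2 had the highest lymphocyte marker sums (24.6 and 24.9 CPM) and the lowest Sema4d (10.9 and 11.6 CPM). Libraries hIAPP 5 and hIAPP 6 had the highest macrophage marker sums of hIAPP (764 and 656 CPM) and the highest Sema4d (13.5 and 13.4 CPM). The part of these cells in the Sema4d values was not tested. The lower level of Sema4d in rIAPP than in WT (-0.28 ± 0.09) lost its call without rIAPP 6, WT 4 or WT 5 (-0.25 to -0.21) and under library totals alone (-0.17).

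Sema6a, a ligand of plexins A2 and A4, averaged 2.18 CPM in hIAPP, 3.66 in rIAPP and 2.39 in WT and was higher in rIAPP than in WT (0.62 ± 0.15). Sema6d averaged 34.3, 38.8 and 33.6 CPM in hIAPP, rIAPP and WT, and its call in rIAPP against WT (0.21 ± 0.07) was lost without WT 1 (0.17), while that in hIAPP against rIAPP (-0.18 ± 0.07) was lost on leaving out any 1 of hIAPP 1, 2, 3 and 6, rIAPP 2, 3, 5 and 6, and WT 2, 3, 4 and 5 (-0.19 to -0.15). Sema4b averaged 23.9, 21.8 and 24.9 CPM and was lower in rIAPP than in WT (-0.19 ± 0.05), a call that ended at -0.07 under library totals alone. Its call in hIAPP against rIAPP (0.13 ± 0.05) was lost without hIAPP 2, hIAPP 3, hIAPP 4, rIAPP 1, rIAPP 3 or rIAPP 6 (0.11 to 0.13). Sema4a was higher in both transgenic genotypes than in WT, by 0.30 ± 0.09 in hIAPP and 0.29 ± 0.09 in rIAPP. The hIAPP call was lost without hIAPP 4, hIAPP 6, WT 3 or WT 6 (0.24 to 0.29). Leaving out hIAPP 5 with hIAPP 6 also ended it, as did the acinar covariate. Sema5b averaged 0.755 CPM in hIAPP, 0.433 in rIAPP and 0.597 in WT, higher in hIAPP than in rIAPP (0.80 ± 0.23). Sema4c, Sema4f, Sema6b and Sema7a passed in no comparison.

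Plexins are the signalling receptors of semaphorins, and most of the 9 did not pass. Plxnc1 (chr10:94790866-94944835), which binds Sema7a and is found on myeloid cells, had 3.06, 4.80 and 7.29 CPM in hIAPP, 1.56, 1.94 and 2.29 in rIAPP and 1.43, 1.68 and 1.87 in WT. Every hIAPP library was above every other library. Its log2 fold change was 1.55 ± 0.17 for hIAPP over WT (edgeR adjusted p = 3.41e-06) and 1.32 ± 0.17 for hIAPP over rIAPP (edgeR adjusted p = 4.55e-06). The macrophage marker sum was 384 to 764 CPM in hIAPP, 98.4 to 115 in rIAPP and 145 to 168 in WT. In rIAPP against WT, 7 of the 13 macrophage markers were lower and 1 was higher. Plxnc1 did not pass in that comparison, with means of 1.96 CPM in rIAPP and 1.67 in WT. Within hIAPP, library 3 had the lowest macrophage marker sum (384 CPM) and the lowest Plxnc1 (3.06 CPM). Library hIAPP 5 had the highest of both (764 and 7.29 CPM), while hIAPP 6, next in the marker sum (656 CPM), had 4.75 CPM of Plxnc1. The part of macrophages in the Plxnc1 values was not tested. The Plxnc1 ligand Sema7a had 15.0, 16.1 and 20.2 CPM in hIAPP, 14.4, 14.7 and 17.9 in rIAPP and 13.3, 15.4 and 17.6 in WT. It passed in no comparison. Plxnd1, the receptor of Sema3e, averaged 25.8, 26.0 and 22.6 CPM in hIAPP, rIAPP and WT and Plxnb2 274, 260 and 255 CPM, and neither passed. Plxnb3 was higher in rIAPP than in WT (0.49 ± 0.15), a call lost without rIAPP 4 (0.42) or WT 2 (0.44), and its value was -0.01 with the acinar covariate. Neuropilin 1 passed in no comparison. Neuropilin 2 was lower in hIAPP than in rIAPP (-0.32 ± 0.12, edgeR adjusted p = 0.0499), a call lost on leaving out any library other than hIAPP 4 or rIAPP 1 (-0.34 to -0.26).

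**Figure D5:**
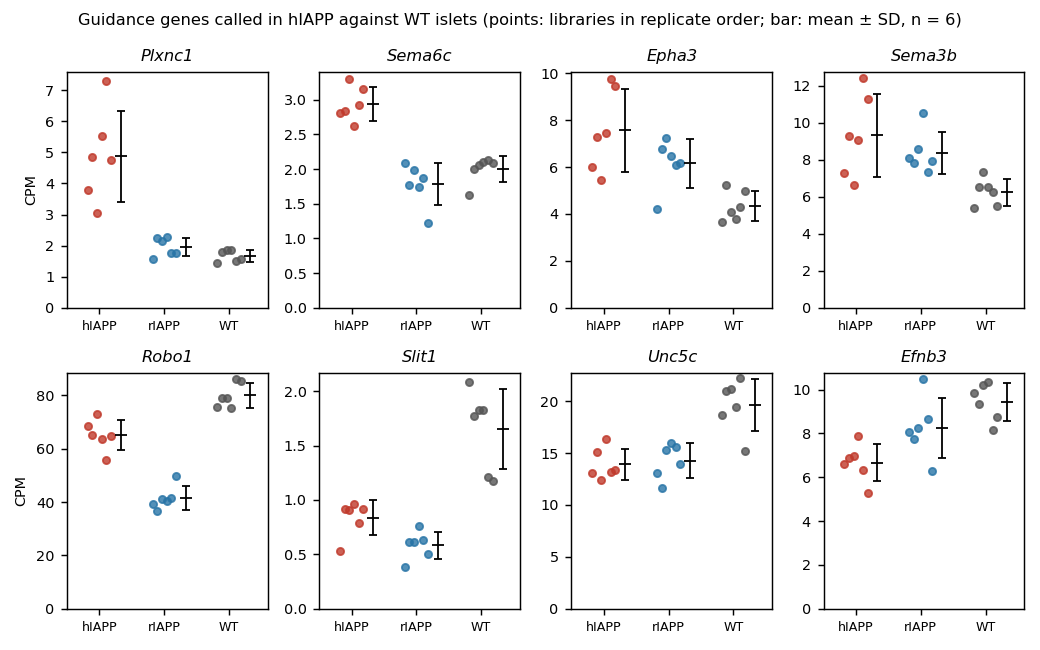
Points are CPM in single libraries, 6 per genotype, with the mean ± SD beside them, for 8 genes called in hIAPP against WT. Plxnc1 (3.06 to 7.29 CPM) and Sema6c (2.62 to 3.30 CPM) in hIAPP lie above every rIAPP and WT library, and Slit1 in WT (1.17 to 2.08 CPM) above every transgenic library.

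Slits are secreted repellents and Robos their receptors. Robo1 (chr16:72308306-73046095) had 55.7, 64.9 and 73.1 CPM in hIAPP, 36.7, 40.7 and 49.9 in rIAPP and 75.3, 79.0 and 86.0 in WT, so that the 3 genotypes did not overlap. It was 51.8% of the WT level in rIAPP islets, a log2 fold change of -0.95 ± 0.07 (edgeR adjusted p = 2.98e-09), and -0.30 ± 0.07 in hIAPP against WT (edgeR adjusted p = 0.00665), the hIAPP call ending at -0.19 when scaled by library totals alone (edgeR adjusted p = 0.0787) and at -0.24 without hIAPP 5 and hIAPP 6 (edgeR adjusted p = 0.0513). Slit1 (chr19:41600257-41743665) had 0.534, 0.912 and 0.964 CPM in hIAPP, 0.381, 0.611 and 0.757 in rIAPP and 1.17, 1.80 and 2.08 in WT. Both transgenic genotypes lay below all WT libraries, with log2 fold changes of -0.97 ± 0.19 in hIAPP over WT (edgeR adjusted p = 0.00158) and -1.50 ± 0.19 in rIAPP over WT (edgeR adjusted p = 5.47e-06). The difference between hIAPP and rIAPP (0.53 ± 0.19, edgeR adjusted p = 0.0477) was lost on leaving out any 1 hIAPP library but hIAPP 1, any rIAPP library but rIAPP 4, or WT 2, WT 3 or WT 4 (0.43 to 0.55).

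Robo2, the Robo with the highest level, had 224, 244 and 348 CPM in hIAPP, 213, 236 and 293 in rIAPP and 271, 360 and 495 in WT, with overlapping ranges. It was lower in rIAPP than in WT (-0.59 ± 0.14, edgeR adjusted p = 0.00241) and in hIAPP than in WT (-0.49 ± 0.14), the hIAPP call lost without WT 6 (-0.38, edgeR adjusted p = 0.0561). That call was also lost with the acinar covariate and without hIAPP 5 and hIAPP 6. Robo1 and Robo2 lie near each other on chromosome 16. The interval from the start of Robo1 to the end of Robo2 (72308306 to 74411825) takes in both gene bodies. The 3 other tested genes in it did not pass in any comparison, and their levels are not given here. Their median log2 fold change was -1.15 for rIAPP over WT, against -0.77 for the 2 Robos, and 1.03 for hIAPP over rIAPP, against 0.38. Robo4, the endothelial Robo, was higher in rIAPP than in WT (0.23 ± 0.08), lost without rIAPP 1, rIAPP 3, rIAPP 5, WT 1 or WT 3 (0.20 to 0.22), and lower in hIAPP than in rIAPP (-0.33 ± 0.08). It moved in the direction of the endothelial markers, and the part of endothelial cells in the Robo4 values was not tested. Slit3 was higher in rIAPP than in WT (0.41 ± 0.12), and Slit2 and Robo3 passed in no comparison. Beta cell markers were lower in both transgenic genotypes, with 7 of 10 lower in hIAPP than in WT and 9 of 10 in rIAPP than in WT.

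Netrins are secreted or membrane-anchored ligands with attractive or repellent actions. Of the 5 tested, 4 were higher in rIAPP than in WT. Ntn1 (chr11:68209364-68400823), the ligand of Dcc, neogenin and Unc5 receptors, had 3.77, 4.77 and 6.80 CPM in hIAPP, 6.86, 8.33 and 10.9 in rIAPP and 2.54, 3.94 and 4.26 in WT. The rIAPP libraries lay above all others, at a log2 fold change of 1.19 ± 0.15 over WT (edgeR adjusted p = 3.48e-06), and with the acinar covariate the value was 0.59. Ntn4 (chr10:93640681-93747207), a laminin-binding netrin of basement membranes, had 10.6, 13.1 and 15.1 CPM in hIAPP, 18.3, 25.1 and 27.9 in rIAPP and 11.5, 13.7 and 16.4 in WT. It also was above all others in rIAPP, by 0.81 ± 0.11 over WT (edgeR adjusted p = 1.59e-05), and lower in hIAPP than in rIAPP (-0.88 ± 0.11). The membrane-anchored netrins G, which bind synaptic partners, were at or below about 1 CPM. Ntng1 averaged 0.476, 0.976 and 0.479 CPM in hIAPP, rIAPP and WT and Ntng2 0.782, 0.674 and 0.411 CPM. Ntng2 was higher in hIAPP than in WT (0.92 ± 0.23), a call lost with the acinar covariate and without hIAPP 5 and hIAPP 6. Its call in rIAPP against WT (0.71 ± 0.23) was lost without rIAPP 1, rIAPP 3, WT 1, WT 2 or WT 3 (0.50 to 0.69). It shares 14.0% of its exon bases with another transcript on the same strand, so its count depends on how reads were assigned.

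Unc5 receptors carry the repellent response to netrins. Unc5a (chr13:54949411-55006018) had 18.3, 19.9 and 21.2 CPM in hIAPP, 19.9, 27.2 and 28.3 in rIAPP and 14.6, 17.9 and 19.1 in WT, with a log2 fold change of 0.59 ± 0.08 for rIAPP over WT (edgeR adjusted p = 1.25e-05). The rIAPP libraries lay above all WT libraries, though 1 of them lay within the hIAPP range. Unc5c (chr3:141465216-141834924) had 12.4, 13.3 and 16.3 CPM in hIAPP, 11.7, 14.7 and 16.0 in rIAPP and 15.2, 20.2 and 22.2 in WT, so the ranges overlapped at the lowest WT library. It was lower in both transgenic genotypes, by -0.50 ± 0.09 in hIAPP (edgeR adjusted p = 0.00128) and -0.46 ± 0.09 in rIAPP (edgeR adjusted p = 0.000906). Unc5b averaged 18.2, 17.6 and 18.1 CPM in hIAPP, rIAPP and WT, and neither it nor Unc5d nor Dcc passed.

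Ephrins are ligands bound to the cell surface. Efnb3 (chr11:69554092-69560205) had 5.29, 6.76 and 7.87 CPM in hIAPP, 6.29, 8.16 and 10.5 in rIAPP and 8.15, 9.58 and 10.3 in WT, and every hIAPP library was below every WT library. Its log2 fold change in hIAPP over WT was -0.50 ± 0.11 (edgeR adjusted p = 0.00310). Its call in hIAPP against rIAPP (-0.31 ± 0.11) was lost without hIAPP 1, hIAPP 5, hIAPP 6, rIAPP 3, rIAPP 4 or rIAPP 5 (-0.31 to -0.23). Efna1, Efnb1 and Efnb2 were higher in rIAPP than in WT, by 0.29 ± 0.08, 0.32 ± 0.10 and 0.32 ± 0.10, and lower in hIAPP than in rIAPP, by -0.31 ± 0.08, -0.50 ± 0.10 and -0.39 ± 0.10. The Efnb2 call against WT was lost without rIAPP 3, rIAPP 5, WT 1 or WT 5 (0.25 to 0.29). Efnb2 marks arteries, and the endothelial marker sum was higher in rIAPP as given above. The part of endothelial cells in the Efnb2 values was not tested. Efna2, Efna3, Efna4 and Efna5 passed in no comparison.

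Eph receptors are tyrosine kinases that bind ephrins. Epha3 (chr16:63543534-63864175), which binds ephrin-A ligands, had 5.43, 7.37 and 9.75 CPM in hIAPP, 4.21, 6.32 and 7.24 in rIAPP and 3.66, 4.21 and 5.22 in WT. All hIAPP libraries were above all WT libraries, at a log2 fold change of 0.80 ± 0.15 (edgeR adjusted p = 0.000985), and it was higher in rIAPP than in WT (0.50 ± 0.15). Epha1 (chr6:42358487-42373268) had 1.27, 1.68 and 1.95 CPM in hIAPP, 2.80, 3.90 and 4.69 in rIAPP and 1.39, 1.80 and 2.06 in WT, with rIAPP above all others and a log2 fold change of 1.07 ± 0.14 over WT (edgeR adjusted p = 8.50e-06). Its exons share 236 bases (6.01%) with those of Zyx on the opposite strand, and the strand setting of the counting is not given in the sources used here. Epha7, a receptor for ephrin-A ligands, averaged 6.92, 12.5 and 8.04 CPM in hIAPP, rIAPP and WT, higher in rIAPP than in WT (0.63 ± 0.11).

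Epha8 was low, with 0.173 to 0.711 CPM in hIAPP, 0.144 to 0.346 in rIAPP and 0.625 to 1.40 in WT. It was lower in both transgenic genotypes than in WT, by -1.08 ± 0.30 in hIAPP and -2.25 ± 0.32 in rIAPP. The hIAPP call was lost with the acinar covariate and without hIAPP 5 and hIAPP 6. These libraries had 0.276 and 0.173 CPM of Epha8, and the other hIAPP libraries 0.602 to 0.711. Epha2 was higher in hIAPP than in WT (0.25 ± 0.07), a call lost in the same settings. Ephb4, which binds ephrin-B2, was higher in rIAPP than in WT (0.37 ± 0.09) and lower in hIAPP than in rIAPP (-0.41 ± 0.09). Ephb2 was lower in rIAPP than in WT (-0.40 ± 0.13), a call lost without rIAPP 1, rIAPP 6, WT 3 or WT 4 (-0.36 to -0.31) and under library totals alone (-0.29). Epha4 and Ephb1 were lower in hIAPP than in rIAPP, by -0.44 ± 0.14 and -0.61 ± 0.19, and the calls ended without rIAPP 3 (-0.41) and without rIAPP 2 (-0.54). Epha5, Epha10, Ephb3 and Ephb6 passed in no comparison.

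Genes that act with the guidance receptors were listed separately by family. Their shares called stand beside those of all tested genes. Among genes with at least 1 CPM in 6 libraries, larger shares of all genes were called. These were 22.6% in hIAPP against WT, 34.4% in rIAPP against WT and 35.1% in hIAPP against rIAPP, and the partner lists were not counted under this filter. Of 26 partners of semaphorins and plexins, hIAPP islets had 3 higher and 1 lower against WT, and rIAPP islets 5 higher and 5 lower against WT. The shares called were 15.4% and 38.5%, beside 15.8% and 26.8% of all genes. The hIAPP against rIAPP counts were 6 higher and 3 lower (34.6%, beside 27.6% of all genes). Met, a growth factor receptor that pairs with plexin B, averaged 64.6 CPM in hIAPP, 28.8 in rIAPP and 65.1 in WT (-1.17 ± 0.06 for rIAPP over WT). Crmp1, a mediator of the semaphorin 3 response, averaged 10.9, 35.4 and 10.3 CPM (1.78 ± 0.10), and its relative Dpysl2 117, 86.1 and 118 CPM (-0.46 ± 0.05). Of 11 partners of Slits and Robos, 1 was higher and 3 lower in rIAPP than in WT, where the adaptor Nck2 changed by -0.46 ± 0.08, the kinase Abl1 by -0.28 ± 0.05 and the Robo-bound GTPase regulator Srgap1 by -0.78 ± 0.18. In hIAPP against WT, 1 of the 11, the adaptor Nck1, was lower (-0.21 ± 0.06), and in hIAPP against rIAPP 3 were higher and 1 lower. The shares called were 9.09% in hIAPP against WT, below the 15.8% of all genes, and 36.4% in each comparison with rIAPP, beside 26.8% of all genes against WT and 27.6% for hIAPP against rIAPP.

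Of 15 partners of netrins, Dcc and Unc5, hIAPP islets had 2 higher and 2 lower against WT, and likewise rIAPP islets against WT, and the hIAPP against rIAPP counts were 2 higher and 1 lower. This list was called at 26.7% in both comparisons with WT, which for rIAPP is near the background of 26.8% and for hIAPP stands beside 15.8%, and at 20% for hIAPP against rIAPP, beside 27.6%. Flrt3, which binds Unc5 receptors, was higher in hIAPP than in WT (0.66 ± 0.16) and in rIAPP than in WT (0.60 ± 0.16), whereas its relative Flrt1 was lower in rIAPP than in WT (-0.99 ± 0.16). Neogenin, Neo1, averaged 83.4 CPM in hIAPP, 89.6 in rIAPP and 92.7 in WT and was lower in hIAPP than in WT (-0.15 ± 0.05). Of 13 partners of Ephs and ephrins, 1 was higher and 0 lower in hIAPP than in WT, 3 higher and 4 lower in rIAPP than in WT, with 5 higher and 3 lower for hIAPP against rIAPP. In that order the shares called were 7.69%, 53.8% and 61.5%, beside 15.8%, 26.8% and 27.6% of all genes. Vav3, which acts downstream of Eph receptors, averaged 3.75 CPM in hIAPP, 16.6 in rIAPP and 2.83 in WT (2.55 ± 0.14 for rIAPP over WT), and Grip1, a scaffold that binds ephrin-B, averaged 20.2, 4.44 and 24.1 CPM (-2.44 ± 0.16).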

How the data were processed

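The authors deposited 1 table of estimated counts per gene symbol for 18 islet libraries. The submitters' processing notes name STAR, HTSeq, GRCm38 and mm10. Not given in the sources used here are the origin of the fractional values, the annotation and the use of strand. Of the values above 0, 39.2% were not whole, with no tolerance, and all were rounded before testing. Total RNA had been depleted of ribosomal RNA, per the labels' protocols. Library numbers follow label order within a genotype and pair nothing.

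Counts were analysed in R 4.3.3 with edgeR 4.0.16, using TMM factors. After filterByExpr on the genotypes, 20244 genes entered the quasi-likelihood fit, in which the 18 libraries share 1 estimate of the spread. Tests were two-sided and adjusted by Benjamini-Hochberg over all genes tested, with a call under 0.05, and SE is from this fit. Nothing in the labels says how mice were related, so p-values measure the spread between these mice. CPM values are counts relative to TMM-scaled library totals, and levels per kb divide by the exon union of GENCODE M21 (GRCm38), which held all 73 guidance genes and 49732 of the 54186 symbols. Promoters came from RefSeq GRCm38.p6 and 60 of the 73 genes had one. Total counts of 110 to 166.2 M per library limit counting error only.

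Alternatives were DESeq2 1.42.0, limma 3.58.1 voom with sample weights, RLE factors, library totals alone, other filters, an acinar score covariate, fits of 2 genotypes, leaving out each library or hIAPP 5 with hIAPP 6, the longest transcript as gene length and a promoter window without the 50 bases after the start. The pipeline was tested on simulated data. Genes were named if called, and values per library were given for the 8 called members with the smallest p in each comparison whose higher genotype averaged 1 CPM or more, 16 genes in all. Promoters were printed for 4 of these. Members, lists and tests were chosen with earlier results of these data known. Plots used matplotlib 3.10.9 (Python 3.11.15).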

Additional observations from a re-analysis of the deposited data

Results flagged for a closer look

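In 48 groups of 6 libraries (16 named genes in 3 genotypes), 3 held a library far from the others by Dixon's criterion, and chance alone flags about 5% of groups. Robo1 in rIAPP 6 was 49.9 CPM, the highest of the rIAPP libraries, with the others at 36.7 to 41.4 CPM. Unc5a in rIAPP 6 was 19.9 CPM, the lowest of the rIAPP libraries, with the others at 26.2 to 28.3 CPM. Sema6c in WT 1 was 1.63 CPM, the lowest of the WT libraries, with the others at 2.00 to 2.13 CPM.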

How the results depend on the processing

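No paired analysis was possible because the numbers of the libraries follow the order of the labels and tie no mice together. Counts of called guidance genes moved by over 1.5 times in the following cases. In hIAPP against WT, 8 were higher and 6 lower, with 14 higher and 5 lower under library totals alone, 1 higher and 1 lower with the acinar covariate, and 3 higher and 4 lower without hIAPP 5 and hIAPP 6, while the share of all genes called was 15.8%, 17.9%, 3.85% and 8.13% in the same order. In rIAPP against WT, 25 were higher and 8 lower, with 9 higher and 3 lower under the acinar covariate and 28 higher and 5 lower under library totals alone (26.8%, 10.1% and 29.4% of all genes). Library totals alone shifted the median log2 fold change of all genes by 0.12 in both comparisons with WT, so the added higher calls lie beside that shift. DESeq2 gave 9 higher and 6 lower, 26 higher and 8 lower, and 8 higher and 23 lower in hIAPP against WT, rIAPP against WT and hIAPP against rIAPP, where it called 19.5%, 29.2% and 30.2% of all genes. Leaving out single libraries gave 7 to 10 higher and 5 to 7 lower in hIAPP against WT, 19 to 26 higher and 6 to 9 lower in rIAPP against WT, and 6 to 8 higher and 19 to 23 lower in hIAPP against rIAPP. Over all 27 alternatives, 2 of 14, 12 of 33 and 24 of 31 calls were kept in these comparisons. Among these calls, the only fold change that changed sign was Plxnb3 in rIAPP against WT, at -0.014161 with the acinar covariate. With the longest transcript in place of the exon union, 14 named levels per kb moved by more than the spread between libraries. The causes were not tested. At this depth, Ntn5, Epha6 and the antisense transcripts were too low to test.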

Other observations

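Among guidance genes with a mean of at least 1 CPM, the spread between libraries of 1 genotype was much alike in all 3. The median coefficient of variation was 13.0% in hIAPP, 12.7% in rIAPP and 12.3% in WT, over 54, 54 and 56 genes.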
